A study of Mus musculus with 16 samples.

Results

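A set of 10 genes of the macrophage state that gathers around scar and stored lipid was followed in mouse liver, namely Gpnmb, Trem2, Cd9, Cd63, Spp1, Lgals3, Cd68, Ctsd, Ctsk and Atp6v0d2. They were chosen by gene symbol with the responses to CCl4 of these same arrays in view, Gpnmb being among the largest rises, so their CCl4 responses are given as a description, and nothing rests on the limma calls counted among them. They were read by 12 of the 55681 gene probes of the array, 2 each for Ctsd and Atp6v0d2, and all 10 were among the 24357 genes tested, after a filter that kept probes called clearly above background on 3 arrays or more.

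The 16 arrays held liver RNA of male BALB/c mice, 1 array a sample. The groups were wild type (WT) control (n = 4), Lcn2-/- control (n = 3), WT CCl4 (n = 5) and Lcn2-/- CCl4 (n = 4). Mice of 6 to 8 weeks received CCl4 in corn oil by intraperitoneal injection at 0.5 ml per kg, 2 times a week for 4 weeks, and were killed 48 hours after the last dose, while the controls received corn oil. The Lcn2-/- mice lack lipocalin 2 in every cell, and the deletion was made in other mouse strains and crossed back to BALB/c. CCl4 is converted by hepatocytes to a radical that kills cells around the central veins, and repeated dosing leads to fibrosis.

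Single-cell studies of injured liver and of fatty tissue describe macrophages that carry Trem2, Cd9, Gpnmb and Spp1, lie along collagen bands, take up lipid and debris and hold many lysosomes. Trem2 is a lipid-sensing receptor that signals through the adaptor Tyrobp, and Ctsk and Atp6v0d2 are better known from osteoclasts, the bone-resorbing relatives of macrophages. None of the 10 genes is restricted to macrophages. Hepatic stellate cells express Cd63 and Lgals3, and bile duct cells express Spp1 and Cd9. In whole liver, more cells of a type and more RNA per cell cannot be told apart.

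Lcn2 itself was lower in the Lcn2-/- arrays, with a log2 difference of -4.15 in controls (limma adjusted p = 0.0214) and -3.33 under CCl4 (adjusted p = 0.0394), while its probe stayed well above background on the Lcn2-/- control arrays at a mean of 11.01. The share of spots with a signal clear of background ran from 51.6% to 60.9% over the arrays, and no gene spot was saturated. The arrays lay on 2 slides. The first held both control groups and WT CCl4 replicate 1, the second the other 8 CCl4 arrays, so treatment and slide overlap almost fully. On each slide the Lcn2-/- arrays lay in the second row, in which WT CCl4 replicate 1 was the only WT array, so genotype and slide row cannot be told apart. WT control replicate 3 was the highest control of its group for 8 of the 10 genes, for 11 of 12 macrophage and leukocyte markers and for 6 of 7 Kupffer cell markers. Lcn2-/- control replicate 3 was the highest of its group for 5 of the genes, 11 of the 12 and 7 of the 7. These arrays are left out in turn and together below where the control level decides a count. They were singled out for being high in these markers, so leaving them out raises the CCl4 difference of such genes by construction. The share of all genes was not selected in that way, so it is no fair measure of a gain in calls.

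Sequences before the start sites were read for the genes, as a description of a set whose common response to CCl4 was part of its choice. RefSeq (GRCm38.p6) windows from 250 bases before to 50 bases after the start were found for 9 of the 10 genes, in 10 windows, and Atp6v0d2 had none. The windows of 4 genes are shown, 3 because they hold the AP-1 type motif TGANTCA and that of Ctsd because it holds the E-box of the lysosomal gene network. Capitals mark matches on either strand to TGANTCA, to GAGGAA (a core bound by PU.1, the macrophage lineage factor), to CACGTG and to TCACGTG, which contains it.
Gpnmb, chr6:49036268-49036567, + strand: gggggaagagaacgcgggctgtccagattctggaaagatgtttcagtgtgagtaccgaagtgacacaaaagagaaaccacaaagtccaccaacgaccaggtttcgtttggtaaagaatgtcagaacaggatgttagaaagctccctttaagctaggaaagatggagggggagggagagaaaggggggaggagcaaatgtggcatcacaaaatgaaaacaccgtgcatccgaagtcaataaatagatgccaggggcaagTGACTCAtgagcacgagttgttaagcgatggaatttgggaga
Trem2, chr17:48346151-48346450, + strand: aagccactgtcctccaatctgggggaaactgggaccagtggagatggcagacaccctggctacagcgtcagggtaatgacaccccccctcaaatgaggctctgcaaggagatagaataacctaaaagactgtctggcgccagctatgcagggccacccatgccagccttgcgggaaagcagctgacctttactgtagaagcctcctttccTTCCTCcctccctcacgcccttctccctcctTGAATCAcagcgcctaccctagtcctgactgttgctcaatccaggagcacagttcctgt
Cd68, chr11:69666121-69666420, - strand: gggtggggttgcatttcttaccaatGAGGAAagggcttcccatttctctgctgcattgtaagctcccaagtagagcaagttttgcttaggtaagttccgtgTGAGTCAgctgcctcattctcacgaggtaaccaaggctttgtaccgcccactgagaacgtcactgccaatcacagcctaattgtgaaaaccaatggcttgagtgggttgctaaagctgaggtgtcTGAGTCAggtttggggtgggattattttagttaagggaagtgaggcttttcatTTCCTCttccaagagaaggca
Ctsd, chr7:142387778-142388077, - strand: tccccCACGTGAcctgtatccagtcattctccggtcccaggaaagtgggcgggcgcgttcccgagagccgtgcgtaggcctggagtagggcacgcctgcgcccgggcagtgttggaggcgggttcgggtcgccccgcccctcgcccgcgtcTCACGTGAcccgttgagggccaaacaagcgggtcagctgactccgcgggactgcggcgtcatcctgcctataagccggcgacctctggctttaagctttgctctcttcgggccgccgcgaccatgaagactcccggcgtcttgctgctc

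TGANTCA was found in the windows of 3 of the 9 genes (Gpnmb, Trem2 and Cd68, with 2 matches in Cd68) and in 7.8% of all 32851 windows of this length. GAGGAA was found in 5 of the 9 (Trem2, Cd63, Spp1, Cd68 and Ctsk) and in 28.3% of all windows. CACGTG and TCACGTG were found only in the Ctsd window among the 9 genes, against 7.2% and 3.8% of all windows. TCATGTG, the other form of the E-box bound by the MiT/TFE factors, was found in none of the 9 and in 3.8% of all windows. These matches are letters in a window and no binding was measured.

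The first question was how far each gene moved with CCl4 in either genotype. All 10 genes were higher after CCl4 in both, between 2.05-fold (Cd9) and 137-fold (Gpnmb) in WT liver, and Gpnmb, Ctsk, Atp6v0d2 and Trem2 held the largest differences in each genotype. The median difference over the 10 genes was 2.98 on the log2 scale in WT and 2.91 in Lcn2-/- liver, against -0.03 and -0.02 over all genes. Of the 10 genes, 9 were called higher by limma at an adjusted p under 0.05 in each genotype, where 8.05% of all genes were called higher in WT (16.7% called in either direction) and 6.56% in Lcn2-/- mice (12.1% in either direction). Since the rule used these contrasts, nothing is read from the counts. Cd9 was the gene not called in either.

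Gpnmb encodes a transmembrane glycoprotein of the lysosome and cell surface, and its probe lies at chr6:49006386-49006445 (mm9, the build of the array's annotation). Its normalised log2 intensity was 7.32, 5.996, 8.43 and 8.46 on the WT control arrays and 14.002, 14.52, 15.08, 15.13 and 14.53 on the WT CCl4 arrays. Gpnmb was 5.14, 3.23 and 3.00 on the Lcn2-/- control arrays and 13.02, 14.85, 13.59 and 13.08 on the Lcn2-/- CCl4 arrays. The groups stood far apart in both genotypes, and all WT controls but none of the Lcn2-/- controls were well above background. The difference was 7.10 ± 0.56 (SE) in WT, the second largest of 24357 genes, and at least 277-fold in Lcn2-/- liver. That bound holds for the main processing only. Among the alternatives the fitted difference in Lcn2-/- liver fell below it, to 7.13 on the log2 scale.

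Trem2 is the receptor that gives these macrophages their usual name (probe at chr17:48491537-48491596). Its log2 intensity was 10.37, 9.93, 11.71 and 10.64 in WT controls and 14.06, 14.44, 14.63, 14.71 and 14.55 after CCl4. On the Lcn2-/- arrays it was 9.90, 9.84 and 9.34 in controls and 13.12, 14.40, 13.79 and 13.70 after CCl4. No control array reached any CCl4 array. The difference was 3.81 ± 0.32 (14.1-fold) in WT and 4.06 ± 0.36 (16.7-fold) in Lcn2-/- liver.

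The tetraspanins Cd9 and Cd63, membrane proteins of the cell surface and of late endosomes (probes at chr6:125410387-125410446 and chr10:128349813-128349872), differed from each other in size of response. Cd9 was 12.62, 12.95, 12.86 and 12.50 in WT controls and 13.63, 14.05, 14.37, 13.96 and 12.83 after CCl4. It was 12.37, 12.55 and 12.53 in Lcn2-/- controls and 13.58, 13.98, 13.08 and 12.08 after CCl4. WT CCl4 replicate 5 and Lcn2-/- CCl4 replicate 4 lay within or below the range of their controls, and the other CCl4 arrays lay above it. The Cd9 difference was 1.04 ± 0.34 in WT and 0.69 ± 0.39 in Lcn2-/- liver, the latter 0.43 without Lcn2-/- CCl4 replicate 2 and 1.06 without replicate 4 of that group. Cd63 was 12.86, 12.69, 14.10 and 13.26 in WT controls against 16.27, 16.36, 16.27, 16.19 and 15.95 after CCl4. In Lcn2-/- mice it was 12.59, 12.66 and 12.57 against 15.95, 16.32, 15.79 and 15.89. Its groups did not overlap in either genotype, and the difference was 2.98 ± 0.22 (7.90-fold) in WT and 3.38 ± 0.25 (10.4-fold) in Lcn2-/- liver.

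Spp1 and Lgals3 encode the secreted proteins osteopontin and galectin-3 (probes at chr5:104868502-104868561 and chr14:48005414-48005473), and both were uneven among the controls. Spp1 was 12.17, 11.44, 14.27 and 12.98 in WT controls and 14.72, 14.15, 14.07, 14.71 and 14.31 after CCl4. The arrays of Lcn2-/- mice read 12.20, 11.58 and 12.73 in controls and 13.70, 14.84, 14.29 and 14.23 after CCl4. WT control replicate 3 lay among the WT CCl4 arrays for Spp1, and the Lcn2-/- groups did not overlap. The Spp1 difference was 1.68 ± 0.45 in WT and 2.10 ± 0.51 in Lcn2-/- liver. Lgals3 was 12.16, 12.25, 14.90 and 13.12 in WT controls against 15.54, 16.01, 16.22, 16.44 and 16.21 after CCl4. In Lcn2-/- mice it was 11.92, 11.74 and 13.68 against 13.99, 15.98, 14.91 and 14.71. The groups did not overlap, although replicate 3 of each control group came within 1 log2 unit of the lowest CCl4 array. The Lgals3 difference was 2.97 ± 0.56 (7.86-fold) in WT and 2.45 ± 0.64 (5.46-fold) in Lcn2-/- liver.

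Cd68 and Ctsd are general lysosomal genes of macrophages, a membrane glycoprotein and the aspartic protease cathepsin D (probes at chr11:69478979-69479038 and chr7:149561962-149562021). Cd68 was 6.95, 7.41, 9.26 and 8.55 in WT controls and 10.20, 9.88, 9.71, 10.64 and 10.40 after CCl4. The Lcn2-/- values were 7.24, 6.91 and 8.94 in controls and 9.18, 10.14, 9.45 and 9.36 after CCl4. The groups did not overlap, but replicate 3 of each control group lay close to the CCl4 arrays, and the difference was 2.12 ± 0.47 (4.35-fold) in WT and 1.84 ± 0.53 (3.57-fold) in Lcn2-/- liver. Ctsd was 15.34, 15.58, 15.67 and 15.25 in WT controls against 16.37, 16.75, 16.51, 16.58 and 16.36 after CCl4. In Lcn2-/- mice it was 15.19, 15.36 and 15.43 against 16.30, 16.51, 16.18 and 16.001. The shift was small and even, 1.06 ± 0.13 in WT and 0.92 ± 0.15 in Lcn2-/- liver, with no overlap. The other Ctsd probe (chr7:149566847-149568505) gave 1.39 ± 0.49 and 1.27 ± 0.56 with overlapping groups.

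Ctsk and Atp6v0d2 encode cathepsin K, a collagen-cleaving protease, and the d2 subunit of the proton pump that acidifies lysosomes (probes at chr3:95313165-95313224 and chr4:19805367-19805426). Ctsk was 8.71, 8.81, 9.53 and 8.68 in WT controls and 14.004, 13.85, 14.65, 14.71 and 14.37 after CCl4. Lcn2-/- mice gave 8.88, 9.34 and 9.13 in controls and 11.13, 14.18, 12.70 and 12.25 after CCl4. The control arrays of both genotypes lay within 1 log2 unit of each other, whereas the Lcn2-/- CCl4 arrays were spread over 3 log2 units. The Ctsk difference was 5.38 ± 0.44 (41.8-fold, ranking 8th of all genes) in WT and 3.45 ± 0.50 (10.9-fold) in Lcn2-/- liver. Atp6v0d2 was 5.61, 6.70, 8.13 and 7.004 in WT controls against 10.87, 11.32, 11.44, 12.08 and 11.88 after CCl4. In Lcn2-/- mice it was 6.84, 5.77 and 8.19 against 9.70, 11.39, 10.56 and 10.54. The groups stood apart, with a difference of 4.66 ± 0.52 (25.2-fold) in WT and 3.61 ± 0.60 (12.2-fold) in Lcn2-/- liver. The other Atp6v0d2 probe gave 4.56 ± 0.50 and 3.69 ± 0.57.

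Control and CCl4 arrays did not overlap for 8 of the 10 genes in WT mice, where 8.09% of all genes were higher without overlap, and for 9 of 10 in Lcn2-/- mice, where 12.1% were. Within slide 1, where only WT CCl4 replicate 1 stood against the WT controls, the 10 genes were again all higher. With slide as a fixed block, 6 of the 10 were called in WT and 3 in Lcn2-/- mice, where 3.31% and 1.38% of all genes were called higher, a fit in which WT CCl4 replicate 1 alone links the 2 slides. The median difference in that fit was 2.74 in WT and 2.66 in Lcn2-/- mice, and the standard errors were wider, 0.95 against 0.56 for Gpnmb in WT mice. Without Lcn2-/- control replicate 2, 6 of 10 were called in Lcn2-/- mice, where 4.37% of all genes were called higher. Without WT control replicate 3 no WT difference of the 10 genes moved by over 1.5 times, and that of Spp1 was 2.19.

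**Figure D1:**
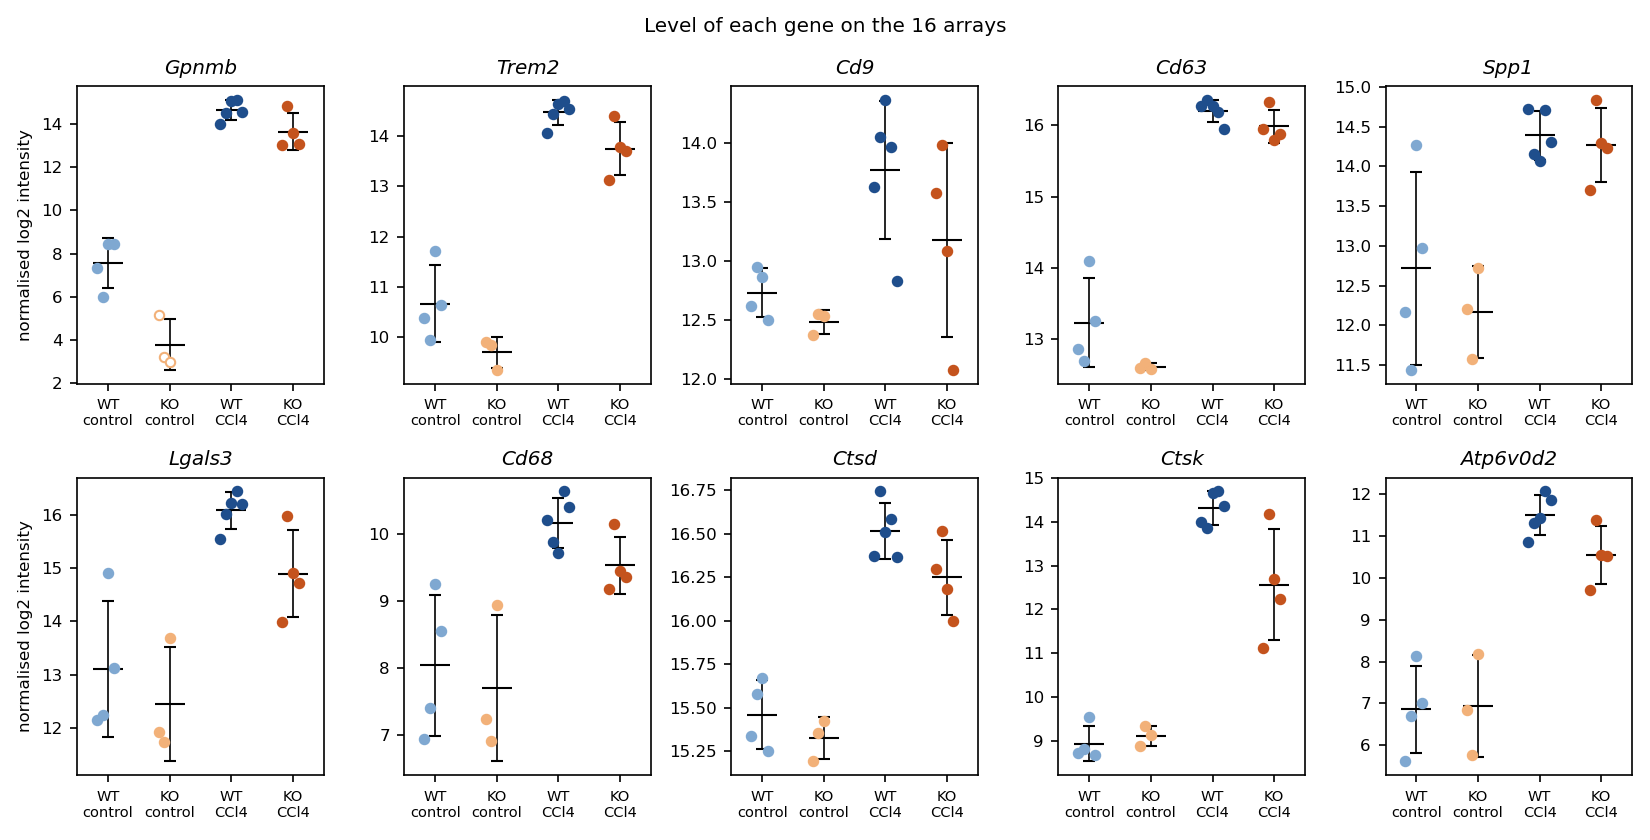
Normalised log2 intensity of each of the 10 genes on the 16 arrays, by group. Each point is an array, open points are not well above background, and the bar gives the mean and SD. The CCl4 arrays sit above the control arrays for all genes but Cd9 in both genotypes and Spp1 in WT mice, and the Gpnmb probe is open on the 3 Lcn2 KO (Lcn2-/-) control arrays.

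**Figure D2:**
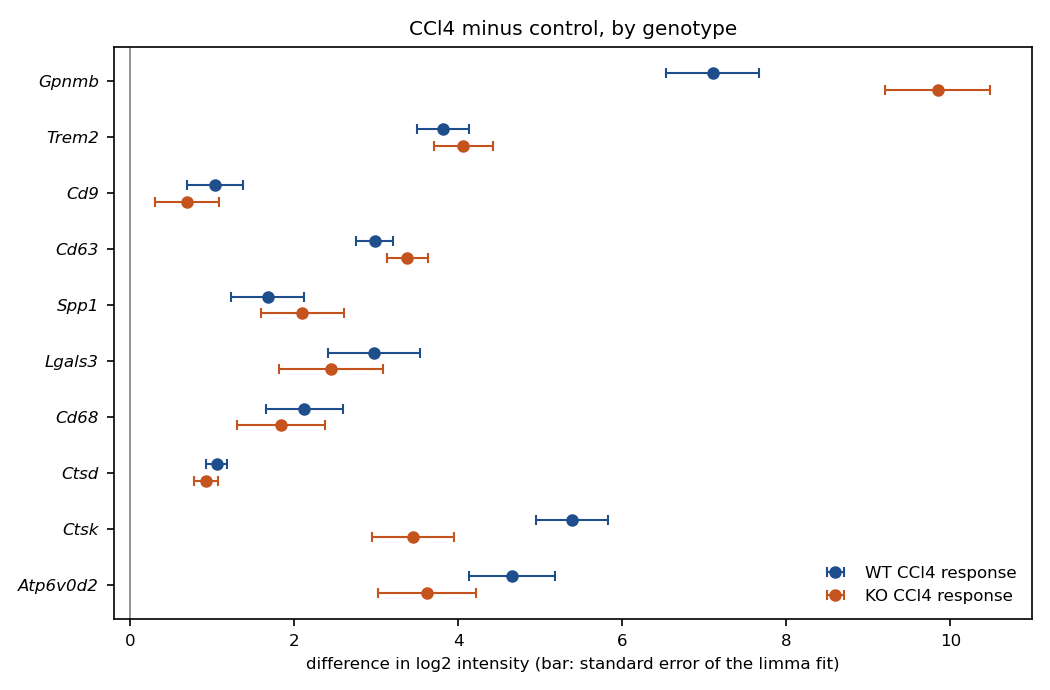
Difference in log2 intensity between CCl4 and control arrays for each gene, in WT (blue) and Lcn2 KO (orange) mice, with the standard error of the limma fit. Differences run from 1.04 for Cd9 to 7.10 for Gpnmb in WT mice and start at 0.69 for Cd9 in Lcn2 KO mice. There the Gpnmb point is the fitted value against controls not well above background. Its bound of at least 277-fold holds for the main processing only.

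The second question was whether the loss of Lcn2 changed the level of these genes in injured liver. All 10 were lower in Lcn2-/- than in WT mice under CCl4, with a median difference of -0.68 on the log2 scale, but none passed limma's threshold over all genes, where 0.649% of genes passed, and no gene's groups were apart, where 3.35% of all genes were lower without overlap. Of all genes, 50.9% were lower in this comparison, with a median of -0.01. At an unadjusted p under 0.05, 2 of the 10 were lower (Trem2 and Ctsk), where 7.19% of all genes were. The 10 genes were measured on the same arrays and are not independent observations. Markers of several cell types had medians below 0 in the same comparison, with -0.94 for 5 monocyte markers, -0.79 for 7 neutrophil, -0.51 for 10 stellate cell and -0.44 for 12 macrophage and leukocyte markers, while the medians were 0.40 for 7 Kupffer cell, 0.52 for 6 cholangiocyte and -0.04 for 7 hepatocyte markers. None of these markers was called, and their part in the levels of the 10 genes was not tested.

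Ctsk differed most. Its level was 13.85 to 14.71 on the WT CCl4 arrays and 11.13 to 14.18 on the Lcn2-/- ones, and 3 of the 4 Lcn2-/- arrays lay below every WT array. The difference was -1.75 ± 0.44 (95% interval -2.69 to -0.81, 3.37-fold lower), with a limma adjusted p of 0.104 and an exact two-sided permutation p of 0.0238, where 0.00794 is the smallest that 5 against 4 arrays allow. Without Lcn2-/- CCl4 replicate 2 the difference was -2.29 (limma adjusted p = 0.00431), and with array weights it was -1.76 (limma adjusted p = 0.0486). Without Lcn2-/- CCl4 replicate 1 it shrank to -1.27. Of the 16 fits that left out 1 array, 1 called Ctsk, and the limma adjusted p reached 0.237 among them. Lcn2-/- CCl4 replicate 2 was the highest of its group for all 10 genes, for 5 of 12 macrophage and leukocyte markers and for 4 of 10 stellate cell markers. Its part in the result was measured only by leaving it out.

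Lgals3 and Gpnmb followed. Lgals3 was lower by 1.19 on the log2 scale in Lcn2-/- mice (95% interval -2.38 to 0.01, limma adjusted p = 0.37, exact permutation p = 0.0238), and 3 of 4 Lcn2-/- arrays lay below the WT range. Gpnmb differed by -1.02 (-2.22 to 0.19, adjusted p = 0.449, exact permutation p = 0.0556). Atp6v0d2 differed by -0.97 (-2.09 to 0.15, adjusted p = 0.438, exact permutation p = 0.0476), and its other probe by -0.57 (-1.64 to 0.50). Trem2 differed by -0.73 (-1.40 to -0.05, adjusted p = 0.337, exact permutation p = 0.0317). Each of these 4 intervals runs below -1, a lower level by over 2-fold, and ends close to 0 or above it, so the number of arrays leaves both a reduction of that size and a difference near 0 possible.

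The other genes differed less. Cd68 differed by -0.63 (95% interval -1.64 to 0.37), Cd9 by -0.59 (-1.32 to 0.14), Ctsd by -0.27 (-0.54 to 0.01), Cd63 by -0.22 (-0.70 to 0.26) and Spp1 by -0.12 (-1.08 to 0.83). Their limma adjusted p ran from 0.383 for Ctsd to 0.923 for Spp1 and their exact permutation p from 0.0635 for Cd68 to 0.635 for Spp1. Lcn2-/- CCl4 replicate 2 lay within or above the WT range for these genes. Under 27 of the 28 alternatives every gene measured was lower in Lcn2-/- mice, and without Lcn2-/- CCl4 replicate 1 Spp1 was higher by 0.06. Alternatives that leave out control arrays or fit only the 2 groups cannot change these differences. They are therefore no further support. Cd9 differed by -0.22 without Lcn2-/- CCl4 replicate 4 and by -0.86 without replicate 2, and Cd63 by -0.33 without replicate 2. Within slide 2 alone the median difference was -0.73.

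**Figure D3:**
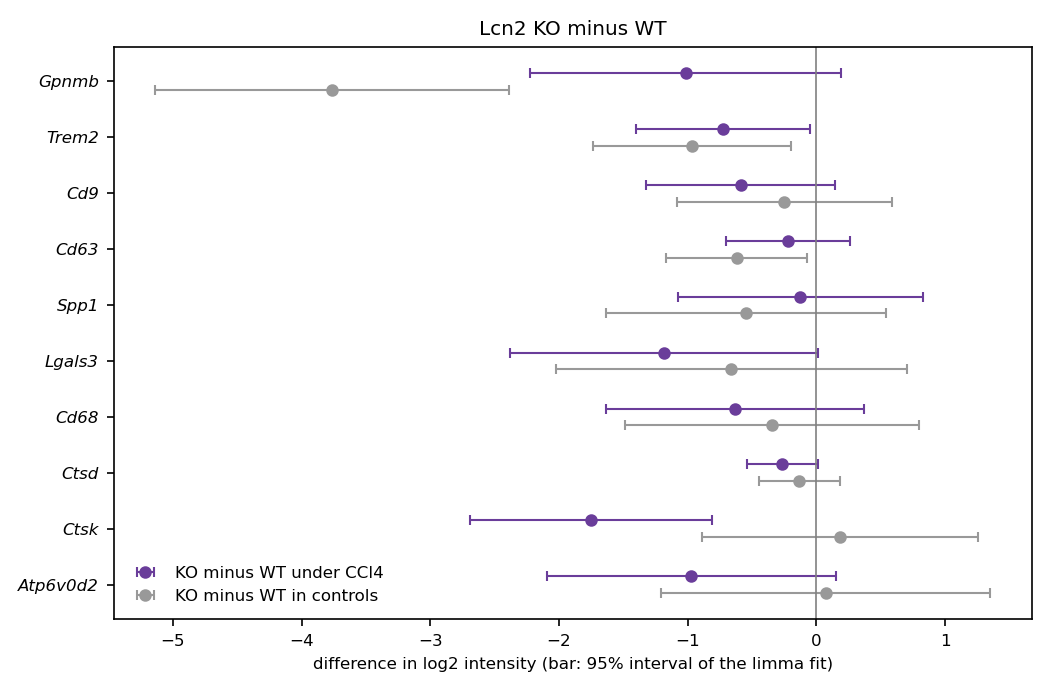
Difference in log2 intensity between Lcn2 KO (Lcn2-/-) and WT mice for each gene, under CCl4 (purple) and in controls (grey), with the 95% interval of the limma fit. Under CCl4 all 10 points lie below 0, from -0.12 for Spp1 to -1.75 for Ctsk, and in controls Gpnmb lies at a fitted -3.76, against a group not well above background.

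In uninjured liver 8 of the 10 genes were lower in Lcn2-/- mice, with a median difference of -0.45. This median rested on single control arrays. It was -0.06 (7 of 10 lower) without WT control replicate 3, -0.70 (9 of 10) without Lcn2-/- control replicate 3, -0.31 (9 of 10) without both, -0.72 (9 of 10) and -0.68 (8 of 10) without WT control replicates 1 and 2, and -0.29 (8 of 10) and -0.27 (7 of 10) without Lcn2-/- control replicates 1 and 2. Gpnmb, 1 gene of 10, passed the limma threshold, where 0.517% of all genes did, and none did with the replicate number as a block. Gpnmb was already known to differ here when the genes were chosen, so its level is a description. It was at least 4.09-fold lower against the lowest signal called above background, a bound of the main processing only. Its fitted difference of -3.76 was -1.58 with normexp background correction (limma adjusted p = 0.171), smaller than that bound. Gpnmb passed neither without Lcn2-/- control replicate 2 (-3.48, limma adjusted p = 0.0697) nor without replicate 3 of that group (-3.37, limma adjusted p = 0.0609). Of the 9 others none passed. Trem2 differed by -0.97 (95% interval -1.74 to -0.20, adjusted p = 0.402, exact permutation p = 0.0571) and Cd63 by -0.62 (-1.17 to -0.07, adjusted p = 0.492, exact permutation p = 0.114), where 0.0286 is the smallest exact p that 4 against 3 arrays allow. Without WT control replicate 3 the Trem2 difference was -0.62 and that of Cd63 -0.33. Gpnmb, Trem2 and Cd63 were the 3 genes whose groups did not overlap, where 5.58% of all genes were lower without overlap. Ctsk differed by 0.18 (-0.89 to 1.26) and Atp6v0d2 by 0.07 (-1.21 to 1.35). The Ctsk difference was 0.07 without Lcn2-/- control replicate 2 and 0.38 without WT control replicate 3.

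The response to CCl4 was then compared between genotypes by the interaction term. None of the 10 genes passed, where 0.0534% of all genes did. At the unadjusted level 2 had a p under 0.05, where 3.31% of all genes did. The interaction of Ctsk was -1.94 (95% interval -3.36 to -0.51), so that its difference with CCl4 was smaller in Lcn2-/- mice, and that of Gpnmb was a fitted 2.74 (0.92 to 4.57), which starts from Lcn2-/- controls not well above background and was 0.61 with normexp background correction. For the other 8 genes the interaction lay between -1.04 for Atp6v0d2 and 0.42 for Spp1. That of Atp6v0d2 was -1.63 without Lcn2-/- control replicate 2 and -0.41 without replicate 3 of that group.

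The genes' neighbours in function were next compared, using 10 gene lists. In the Trem2 group the adaptor Tyrobp, with a difference of 1.15 ± 0.45 in WT (limma adjusted p = 0.0949), was not called. The receptors Ms4a7 (3.25 ± 0.52 in WT, with an adjusted p of 0.000616, and 3.36 ± 0.59 in Lcn2-/- mice) and Clec7a, the beta-glucan receptor (1.75 ± 0.43 and 2.53 ± 0.48), rose in both genotypes. Hcst, the adaptor related to Tyrobp, also rose in both (1.11 ± 0.31 and 1.34 ± 0.36), Cd33 rose in WT mice (3 of 4 controls well above background), Ms4a4a rose in Lcn2-/- mice (a fitted 4.28 ± 0.92, with 1 of 3 controls well above background), and Trem1 fell in WT mice by 0.67. In all, 4 of 13 rose and 1 fell in WT mice, and 4 rose in Lcn2-/- mice, where 8.05% and 6.56% of all genes rose. In WT mice 2103 of 24357 genes were called lower. Without both replicate 3 controls, a choice made after seeing these arrays high in leukocyte markers, 11 of 13 rose in WT and 9 in Lcn2-/- mice, Tyrobp among them in each, where 11.3% and 8.51% of all genes rose. How much of this gain comes from that choice was not tested. Without WT control replicate 3 alone 8 of 13 rose in WT and 5 in Lcn2-/- mice, where 10.1% and 7.23% of all genes did. Without Lcn2-/- control replicate 3 alone the same 4 genes as with all arrays rose in Lcn2-/- mice, where 6.59% of all genes did. In WT mice 5 rose in that fit, and its share of all genes is not given here.

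Among 12 genes of macrophages at scars, 4 rose in each genotype, where 8.05% of all genes rose in WT and 6.56% in Lcn2-/- mice. Mmp12, macrophage elastase, differed by a fitted 6.19 ± 0.70 in WT mice (adjusted p = 4.36e-05 by limma), where 2 of 4 controls were well above background. In Lcn2-/- mice none of the 3 controls was, and Mmp12 was at least 24.6-fold higher after CCl4 (limma adjusted p = 0.000174). Itgax, the integrin CD11c, differed by 4.08 ± 0.75 and 4.69 ± 0.85, Pdgfb, a growth factor for stellate cells, by 1.44 ± 0.21 and 1.55 ± 0.24, and Mmp14 by 0.91 ± 0.26 and 1.52 ± 0.29. The median over the list was 0.82 in WT and 1.00 in Lcn2-/- mice. Il1b (0.27 ± 0.76 in WT) and Tgfb1 (0.48 ± 0.22) did not pass. Without WT control replicate 3, 7 of 12 rose in each genotype, Tgfb1 among them, where 10.1% and 7.23% of all genes did. Without both replicate 3 controls 9 rose in WT and 7 in Lcn2-/- mice, where 11.3% and 8.51% of all genes did.

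The general lysosomal genes gave smaller differences. Of 22 proteases and hydrolases other than Ctsd and Ctsk, 5 rose in each genotype, with a median of 0.24 in WT and 0.36 in Lcn2-/- mice. Gusb (1.03 ± 0.11 and 0.71 ± 0.12) and Hexa (0.72 ± 0.13 and 0.87 ± 0.15), both glycosidases, Glb1 (0.45 ± 0.12 and 0.66 ± 0.13) and Psap (0.59 ± 0.17 and 0.63 ± 0.19) rose in both. Naglu, another glycosidase, rose in Lcn2-/- mice (0.42 ± 0.13). Of 9 lysosomal membrane proteins 1 was called in WT mice (Laptm5, 1.43 ± 0.42) and none in Lcn2-/- mice, a share near the 8.05% and 6.56% of all genes, and Lamp1 was at 0.10 ± 0.07. Without both replicate 3 controls 9 of the 22 proteases and hydrolases rose in WT and 8 in Lcn2-/- mice, where 11.3% and 8.51% of all genes did, and 1 of the 9 membrane proteins in each, a share near that of all genes.

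The other parts of the proton pump were read in the same way. Of 24 other subunits and accessory proteins of the vacuolar ATPase 21 were tested, and 1 was called higher in each genotype, Atp6ap2 in WT (0.35 ± 0.11) and Atp6v0b in Lcn2-/- mice (0.49 ± 0.12), a share no higher than that of all genes (8.05% and 6.56%). Atp6v0d1, the widely expressed partner of Atp6v0d2, was at -0.01 ± 0.12 in WT mice, where Atp6v0d2 was at 4.66. None of the 4 MiT/TFE transcription factors, which drive lysosomal genes, passed in either genotype (Mitf 0.29 ± 0.16, Tfeb 0.08 ± 0.13, Tfe3 0.11 ± 0.11 and Tfec 0.25 ± 0.31 in WT). Among 9 osteoclast and cell fusion genes Mmp9 rose in WT mice (a fitted 1.64 ± 0.52, adjusted p = 0.0433, with 1 of 4 controls and 4 of 5 CCl4 arrays well above background), Nfatc1 fell in Lcn2-/- mice by 0.60, and Acp5, the osteoclast acid phosphatase, was at 0.04 ± 0.10 in WT and 0.06 ± 0.11 in Lcn2-/- mice. Without both replicate 3 controls 3 pump genes rose and 1 fell in WT and 2 rose in Lcn2-/- mice, Tfec rose in each, and 2 of the 9 osteoclast genes rose in each, against the same shares of all genes.

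Lipid genes were mixed, and the counts of the 3 lists that follow stand beside 8.05% of all genes called higher in WT and 6.56% in Lcn2-/- mice. Of 14 lipid genes, Lpl, lipoprotein lipase (2.57 ± 0.25 and 2.70 ± 0.28), Cd36, a fatty acid and lipoprotein receptor (1.37 ± 0.41 and 1.76 ± 0.47), and Fabp4, a fatty acid carrier (0.97 ± 0.15 and 1.24 ± 0.17), rose in both genotypes, and Npc2 rose in WT mice (0.58 ± 0.18). Fabp5 (0.32 ± 0.32 in WT), Apoe (-0.03 ± 0.07) and Lipa (-0.06 ± 0.36) did not pass. Plin2, a lipid droplet coat protein, was the only gene of the 10 lists to pass in a comparison of genotypes. It was lower by 0.89 in Lcn2-/- controls (limma adjusted p = 0.0296), where 0.517% of all genes passed, and at -0.57 under CCl4 (limma adjusted p = 0.12). With so many genes in the lists, a single call is not read as a result about Plin2. Of 11 other tetraspanins, Tspan3 (1.09 ± 0.20 and 0.85 ± 0.23) rose in both genotypes, Cd37 rose and Tspan15 fell in WT mice (0.70 ± 0.21 and -0.83 ± 0.20). Of 12 osteopontin receptors and galectins, Lgals1 (2.00 ± 0.28 and 2.64 ± 0.32) rose in both, which in WT mice is a share near that of all genes, and Lgals4 in Lcn2-/- mice (0.82 ± 0.22), and the osteopontin receptor Cd44 was at 0.64 ± 0.34 and 0.96 ± 0.38 without passing. Without both replicate 3 controls Cd44 passed in each genotype, 4 of these 12 rose in WT and 3 in Lcn2-/- mice, and 6 of the 14 lipid genes rose in each, where 11.3% and 8.51% of all genes did.

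**Figure D4:**
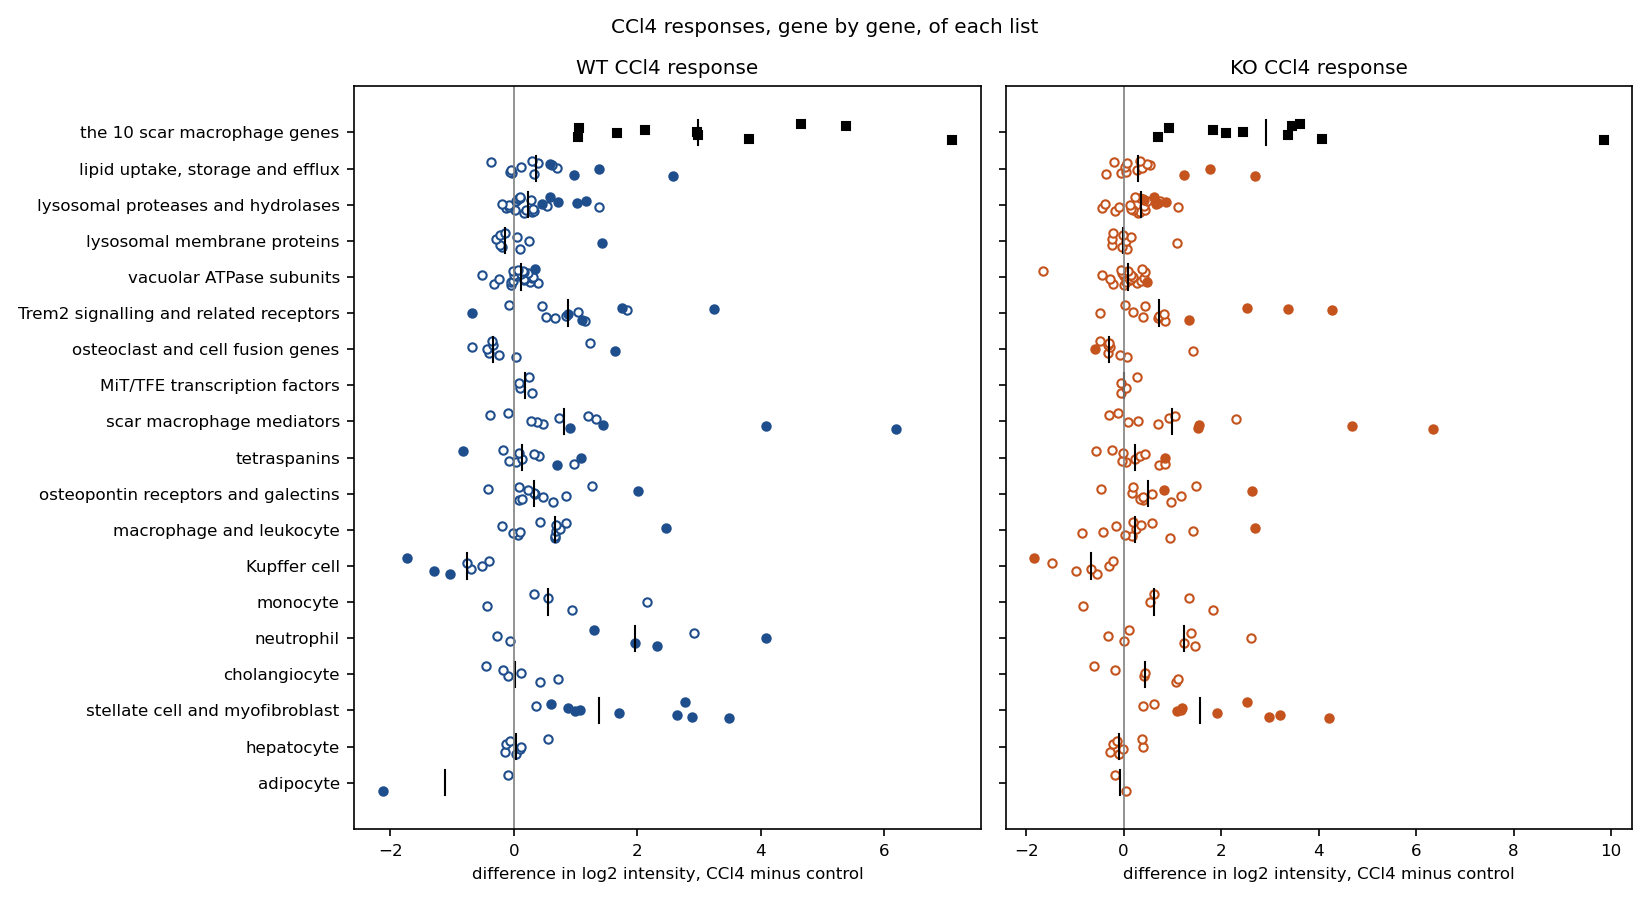
CCl4 response of each gene of the lists (circles, filled where the limma adjusted p is under 0.05) and of the 10 genes (black squares, no test), in WT and Lcn2 KO (Lcn2-/-) mice. The vertical bar is the median of the list, which is 2.98 for the 10 genes and 0.12 for the other vacuolar ATPase subunits in WT mice.

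Markers of cell types were set beside these values. Of 12 general macrophage and leukocyte markers, Lyz2 alone was called (2.46 ± 0.50 in WT and 2.69 ± 0.57 in Lcn2-/- mice, limma adjusted p = 0.00386 and 0.00711). That share is near the 8.05% and 6.56% of all genes called higher. Csf1r, the receptor on which macrophages depend, was at 0.07 ± 0.30 and 0.03 ± 0.34. Adgre1, a surface marker of macrophages, was at 0.66 ± 0.47 in WT and 0.18 ± 0.53 in Lcn2-/- mice. These values rested on replicate 3 of the controls. Without WT control replicate 3, Adgre1 was at 1.17 ± 0.39 (adjusted p = 0.0512) and Csf1r at 0.37 ± 0.26 in WT mice, and without Lcn2-/- control replicate 3 they were at 0.87 ± 0.48 and 0.47 ± 0.31 in Lcn2-/- mice. Without both arrays 7 of the 12 markers rose in each genotype, where 11.3% and 8.51% of all genes did, Adgre1 among them (limma adjusted p = 0.00127 and 0.0282), and Csf1r did not pass (limma adjusted p = 0.109 and 0.11). Each of these arrays was the highest of its group for 11 of the 12, so a higher response without them was built into the choice. Of 7 Kupffer cell markers, Clec4f, Timd4 and Cd163 fell in WT mice (-1.03 ± 0.22, -1.29 ± 0.37 and a fitted -1.73 ± 0.44). Among all 24357 genes 2103 were called lower there, and Cd163 was well above background on 1 of 5 WT CCl4 arrays. In Lcn2-/- mice Cd163 alone of the 7 was called lower (limma adjusted p = 0.0285), where 1360 of 24357 genes were. It was well above background on 1 of 3 control and 0 of 4 CCl4 arrays there, and no fold is given. The median over the 7 markers was -0.76 in WT and -0.67 in Lcn2-/- mice. Timd4 did not pass without WT control replicate 3 (-0.998 ± 0.37, limma adjusted p = 0.0745). Without both replicate 3 controls Clec4f, Timd4, Cd163 and Vsig4 were called lower in WT mice and none of the 7 in Lcn2-/- mice. The medians over the 7 in that fit were -0.51 and -0.19, and its share of all genes called lower is not given here. No monocyte marker of 5 passed with all arrays. Without both replicate 3 controls 4 rose in WT and 3 in Lcn2-/- mice, where 11.3% and 8.51% of all genes did. Each of these arrays was the highest of its group for all 5, so the same limit holds. Of all genes 8.05% were called higher in WT and 6.56% in Lcn2-/- mice. Neutrophil markers rose in WT mice for 4 of 7, among them S100a8 (2.31 ± 0.69), with a median difference of 1.96. None was called in Lcn2-/- mice, where the median was 1.24 and control replicate 3 was the highest of its group for 7 of 7 of them, and none was called by the interaction term. Without that array 5 of 7 rose in Lcn2-/- mice, where 6.59% of all genes did, with a median of 2.27.

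Stellate cell and myofibroblast markers rose with the 10 genes, 9 of 10 in WT and 8 of 10 in Lcn2-/- mice, where 8.05% and 6.56% of all genes rose. Col1a1 led these markers (3.49 ± 0.45 and 4.21 ± 0.51). Under CCl4 their mean log2 level ran from 12.58 to 13.34 on the WT arrays and from 12.47 to 12.84 on the Lcn2-/- arrays, that of the macrophage and leukocyte markers from 12.27 to 13.09 and from 11.89 to 12.39, and that of the 10 genes from 13.97 to 14.52 and from 12.97 to 14.26. The part of each cell type in the levels of the 10 genes was not tested. No hepatocyte marker of 7 and no cholangiocyte marker of 6 passed, and of 5 adipocyte markers 2 were tested, of which Cfd was at least 2.44-fold lower after CCl4 in WT mice, with 0 of 5 CCl4 arrays well above background (limma adjusted p = 0.000347).

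**Figure D5:**
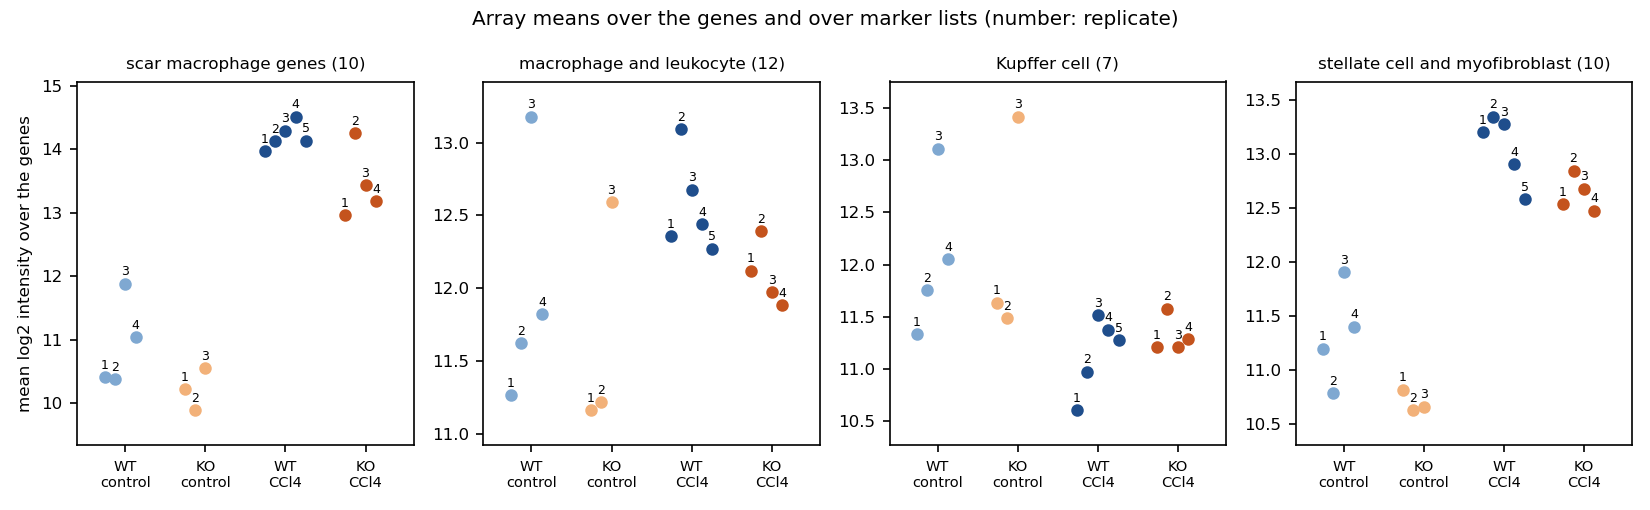
Mean log2 intensity on each array over the 10 genes and over the markers of macrophages and leukocytes, Kupffer cells, and stellate cells and myofibroblasts, by group, with the replicate number at each point. Replicate 3 of both control groups is highest for macrophage and Kupffer cell markers, and the 10 genes lie from 9.90 to 11.89 on the control arrays and from 12.97 to 14.52 on the CCl4 arrays.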

How the data were processed

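Liver RNA labelled with Cy3 was hybridized to 1-colour Agilent mouse arrays, scanned and extracted with Feature Extraction 10.7.3.1 (array annotation on mm9). Per the file headers, the deposited intensity columns hold the processed signal, already background-subtracted, and the mean and background signals of each spot. A second deposited table holds the authors' own log2 values, described in their methods as quantile normalized and tested with limma, which correlated at 0.993 with the log2 values computed here and served as an alternative. That correlation is across probes.

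Control spots and spots marked as outliers were left out, log2 processed signals were quantile normalized over the 16 arrays, spots of a probe were averaged, and 121 probes with every spot marked on an array were removed. Probes called above background on 3 arrays or more entered the tests, with 1 probe a gene (the highest mean). One limma 3.58.1 model (R 4.3.3) over the 4 groups gave 5 contrasts, with Benjamini-Hochberg adjustment over 24357 genes and a threshold of 0.05. The model was run on simulated data with independent noise. These had no slide layout, no deviation shared by the genes of an array and no background floor, so that run covers none of these limits. Exact two-sided permutation tests over arrays were run for single genes. For a group in which a gene is dark, the fold is a bound, set by the higher of the gene's own signal and the lowest signal called well above background on each array. Such a bound holds for the main processing only. The number of arrays limits the precision, and the labels do not say more than that replicates are separate samples, so p-values measure only the spread between these samples.

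The 10 genes, the gene lists, the marker lists and the motifs were chosen with earlier results of these data known. Genes named from the lists passed the threshold in a comparison of genotypes, or were among the 3 with the largest mean of both responses among those called in either, and others were named after their values were seen. RefSeq (GRCm38.p6) gave current symbols for 49.8% of gene spots and the others kept the symbol of the array. Same-numbered WT and Lcn2-/- control arrays deviated together from their group means (r across genes of 0.233, 0.368 and 0.552, against -0.419 to 0.302 for other pairs, with WT control 1 nearer to Lcn2-/- control 2 than to its own number). The highest of these r joins the replicate 3 arrays. Other pairs of groups showed no pairing by number, but arrays of different number reached similar r. It was 0.640 for WT CCl4 replicate 5 with Lcn2-/- CCl4 replicate 4, and 0.433 for WT control replicate 3 with WT CCl4 replicate 2. Such r therefore do not settle whether the controls were paired, and the labels state no pairing. The replicate number was used as a block in an alternative fit only, and the main model and the exact tests treat the arrays as unpaired. Alternatives were 75th percentile scaling, normexp correction with an offset of 50, the authors' table, other filters, the mean over probes, slide and replicate blocks, array weights, 2-group fits, single slides and leaving out each array. Protein sequences were not used here, and a gene counted in the lists is not reported here.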

Additional observations from a re-analysis of the deposited data

Results flagged for a closer look

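Among 30 tests for a stray array (10 genes in the 3 groups of 4 or more arrays), 1 was past Dixon's limit, and chance alone passes about 1 in 20. Ctsk on WT control replicate 3 stood at 9.53, while the other WT controls lay between 8.68 and 8.81. The same array was the highest WT control for 8 of the 10 genes. The Ctsk response in WT mice stayed between 5.29 and 5.58 when any single array was left out.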

How the results depend on the processing

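For the 10 genes, 1292 of 1355 values over all alternatives kept their direction and their side of the threshold, 36 lost and 13 gained the call, and 14 changed sign. Many of these values could not change direction, since leaving out an array outside the groups compared keeps the difference and moves only its p. The tally therefore overstates how stable the values are. No difference between CCl4 and control changed sign. The sign changes were all in uncalled values. Left-out arrays moved Spp1 (Lcn2-/- minus WT under CCl4) from -0.32 to 0.064, Cd68 in controls from -0.97 to 0.061, Atp6v0d2 in controls from -0.56 to 0.65, and the interactions of Trem2 (-0.11 to 0.49), Cd9 (-0.61 to 0.026), Spp1 (-0.095 to 0.85), Lgals3 (-1.12 to 0.093) and Cd68 (-0.69 to 0.33). With array weights the Trem2 interaction was -0.12. Without both replicate 3 controls, an alternative chosen after seeing the data, Atp6v0d2 in controls was -0.13 and the Trem2 interaction -0.28, 255 genes were called between genotypes under CCl4, and 0 of the 10 in controls.

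Counts of genes called moved by over 1.5 times as follows. With slide as a block, 1295 genes were called in WT and 426 in Lcn2-/- mice after CCl4, with 3 of the 10 in the latter, and within slide 1, 704 genes and 4 of the 10 were called in WT mice, where the single CCl4 array was assumed to vary like the controls. Array weights gave 7006 and 6975 genes after CCl4, 321 between genotypes under CCl4 with 1 of the 10 (Ctsk), and 1253 in controls. Fits of 2 groups gave 1751 genes in Lcn2-/- mice after CCl4, 94 between genotypes under CCl4, and 0 of the 10 in controls. In controls, no filter gave 216 genes, and probes bright on all arrays gave 57 genes and 0 of the 9 measured, with 1 gene for the interaction. Normexp gave 0 of the 10 in controls and 7 genes for the interaction, and the authors' table gave 3. With the replicate number as a block, 87 genes were called between genotypes under CCl4, 6 for the interaction and 0 of the 10 in controls. The Gpnmb difference there was -3.67 (adjusted p = 0.103), and the block took the call of Cd68 in Lcn2-/- mice after CCl4 and gave that of Cd9 in WT mice. The cause of these changes was not tested, except that fewer genes or arrays enter the filtered and single-slide fits.

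When 1 array at a time was left out, called genes ran from 2485 to 5074 in WT and from 1680 to 3194 in Lcn2-/- mice after CCl4, with 8 to 10 and 6 to 9 of the 10. They ran from 72 to 191 between genotypes under CCl4 (0 to 1 of the 10), from 94 to 142 in controls (0 to 1 of the 10) and from 8 to 15 for the interaction. Of the counts after CCl4 and between genotypes under CCl4, the lowest came without WT control replicate 1, Lcn2-/- control replicate 2 and Lcn2-/- CCl4 replicate 3. The 75th percentile scaling shifted the median of all genes to -0.16 in WT and -0.14 in Lcn2-/- mice after CCl4, and the 10 genes stood above it.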
